A study of Mus musculus with 8 samples.

Results

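Cytosolic ribosomal protein genes were followed in mouse CD3 T cells across all 8 groups of an array study of T cell activation. The members were chosen by name. A gene was taken when the platform annotation gave its probe set a single symbol of the Rpl or Rps pattern, Rplp0 to Rplp2 or Rpsa, with pseudogenes ending in -ps left out. Where a gene had several probe sets, the one that was brightest on average across the arrays was used. This gave 67 genes out of 22180 genes with a probe set of their own. 39 were large subunit genes, 25 were small subunit genes and 3 encoded stalk proteins. The deposited RMA (robust multi-array average) levels were read as log2 values, and every level and difference below is on that scale.

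The cells came from the spleens and lymph nodes of C57BL/6J mice after other cell types had been depleted, and their RNA was hybridised to Affymetrix Mouse Gene 2.0 ST arrays, with 1 array for each group. The groups were ConA+PLL at 3 h, ConA at 3 h, PLL at 3 h and naive cells at 0 h, and ConA+PLL, ConA, PLL and naive cells at 24 h. ConA (concanavalin A) is a lectin that crosslinks surface glycoproteins and was used at low dose, and PLL (poly-L-lysine) is a polycation coat that holds cells on the plate. Stimulation lasted 3 h in each treated group, and cells of the 24 h groups were then washed and cultured further. The naive 0 h array is the one whose label gives its time as control. No naive array stood at 3 h, so treatment and time in culture cannot be told apart in comparisons of 3 h arrays with naive 0 h. No group had a second array, so no difference below has a replicate check, no test could be made, and no p-value is given. In bulk RNA, fewer cells of a type and less RNA per cell cannot be told apart. 8 of 9 T cell markers had a probe set of their own and lay between 8.07 and 11.10 on all arrays. B cell, monocyte and macrophage, and NK cell markers lay between 2.29 and 5.51, and the erythroid markers were not analysed here. Array medians over all 41345 probe sets ran from 3.53 to 3.69.

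Each cytosolic ribosome is built from a small and a large subunit, and most of its proteins are needed in equal number. The small subunit reads the mRNA, and the large subunit joins amino acids and binds elongation factors through its stalk. Messenger RNAs of ribosomal proteins start with a run of pyrimidines, the 5′ terminal oligopyrimidine (TOP) tract, through which mTOR and Larp1 govern their translation. Resting T cells hold few ribosomes and make many more before they divide. An array reads RNA level only, so translation of these mRNAs was not measured.

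The start of the transcript is shown for some members with the TOP tract at the annotated start and some without it. The tract was looked at because it is the feature that ties this family together. RefSeq promoter entries (build GRCm38.p6) matched 52 of the 67 members by gene ID. 11 of these 52 genes, 21.2%, had a C at an annotated start followed by 4 bases that were each C or T. The share was 3.01% over all 27025 genes of the table. It was 0 of 59 for mitochondrial ribosomal protein genes. Each line gives 10 bases before the annotated start and 20 from it, on the strand of the gene. Capitals mark the pyrimidine run that begins at the start.
Rpl15, chr14:18270967-18270996, minus strand: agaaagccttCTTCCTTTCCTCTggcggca
Rpl28, chr7:4792955-4792984, plus strand: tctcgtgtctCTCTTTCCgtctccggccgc
Rps6, chr4:86857348-86857377, minus strand: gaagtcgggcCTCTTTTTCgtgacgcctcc
Rps18, chr17:33955646-33955675, minus strand: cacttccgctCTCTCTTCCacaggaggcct
Rps26, Rps12 and Rps13 were among the bright members (defined in the next paragraph) with the widest range. They had no such tract at the annotated start, and capitals mark the longest pyrimidine run in the same window. No match says only that these letters do not stand at this annotated base.
Rps26, chr10:128626487-128626516, minus strand: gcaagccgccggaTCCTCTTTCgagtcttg
Rps12, chr10:23787190-23787219, minus strand: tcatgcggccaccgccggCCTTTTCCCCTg
Rps13, chr7:116334171-116334200, minus strand: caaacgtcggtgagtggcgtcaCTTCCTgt
The run began at base 4 in Rps26, at base 9 in Rps12 and at base 13 in Rps13, counted from 1 at the annotated start. Among bright members, 7 had the tract at the start and 21 had an entry without it. Their median differences for ConA+PLL minus naive at 24 h were 0.25 with the tract and 0.15 without it. The ranges overlapped, from -0.18 to 0.40 with the tract and from -0.22 to 0.70 without it.

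60 of the 67 members passed a filter that asks for a highest value at or above the median of the table (3.62). 13428 of all genes passed it. The 7 members under it were Rpl10l, Rpl22l1, Rpl27a, Rpl30, Rpl32l, Rpl3l and Rplp2. The 60 fell into a bright and a dim class with nothing between them. 37 members had a mean level from 7.91 to 12.31, and 23 had a mean level from 3.00 to 6.36. The split at a mean level of 7 was set after the values were seen. A probe set's level depends on its probes, so a dim value is not a measure of how much of that mRNA the cells held. Olfactory and vomeronasal receptor genes, which T cells are not known to use, gave a yardstick for low signal. The 95th percentile of their highest values was 4.10, and 10 members never reached it.

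The bright class held 21 large subunit genes, 14 small subunit genes and the stalk genes Rplp0 and Rplp1. The large subunit genes were Rpl3, Rpl4, Rpl6l, Rpl7, Rpl7a, Rpl8, Rpl9, Rpl10a, Rpl13, Rpl14, Rpl15, Rpl19, Rpl21, Rpl23a, Rpl27, Rpl28, Rpl29, Rpl32, Rpl35, Rpl38 and Rpl41. The small subunit genes were Rps3, Rps3a1, Rps4x, Rps6, Rps9, Rps12, Rps13, Rps18, Rps19, Rps24, Rps25, Rps26, Rps28 and Rpsa. RefSeq lists Rpl6l as a pseudogene, and Rpl6 itself lay in the dim class at 3.42 to 4.06. The dim class held Rpl5, Rpl6, Rpl7l1, Rpl11, Rpl17, Rpl22, Rpl26, Rpl34, Rpl37, Rpl37a, Rpl39, Rpl39l, Rps4l, Rps7, Rps10, Rps14, Rps15, Rps16, Rps20, Rps23, Rps27, Rps27l and Rps29. 20 of 79 proteins of the cytosolic ribosome had no probe set of their own, and 12 of these 20 lay in probe sets that carry several symbols. Fau, which encodes a small subunit protein outside the name rule, held 10.55 to 10.74 on all 8 arrays.

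Most bright members moved little. The median range over the 8 arrays was 0.43 for bright members, against 0.63 for all 2395 filtered genes with a mean level of at least 7. 6 bright members had a range of 1.5-fold or more. Rpl8, which lies close to the peptidyl transferase centre, had 10.34 on ConA+PLL, 10.29 on ConA and 10.27 on PLL at 3 h, against 10.26 on naive 0 h. At 24 h it held 10.29 on ConA+PLL, 10.25 on ConA and 10.20 on PLL, against 10.28 on naive. Rpl19, a large subunit protein, kept within 11.17 and 11.31, and Rps3, at the mRNA entry site of the small subunit, kept within 10.35 and 10.55. The 23 dim members had a median range of 0.61, against 0.68 for all filtered genes with a mean level under 7.

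**Figure D1:**
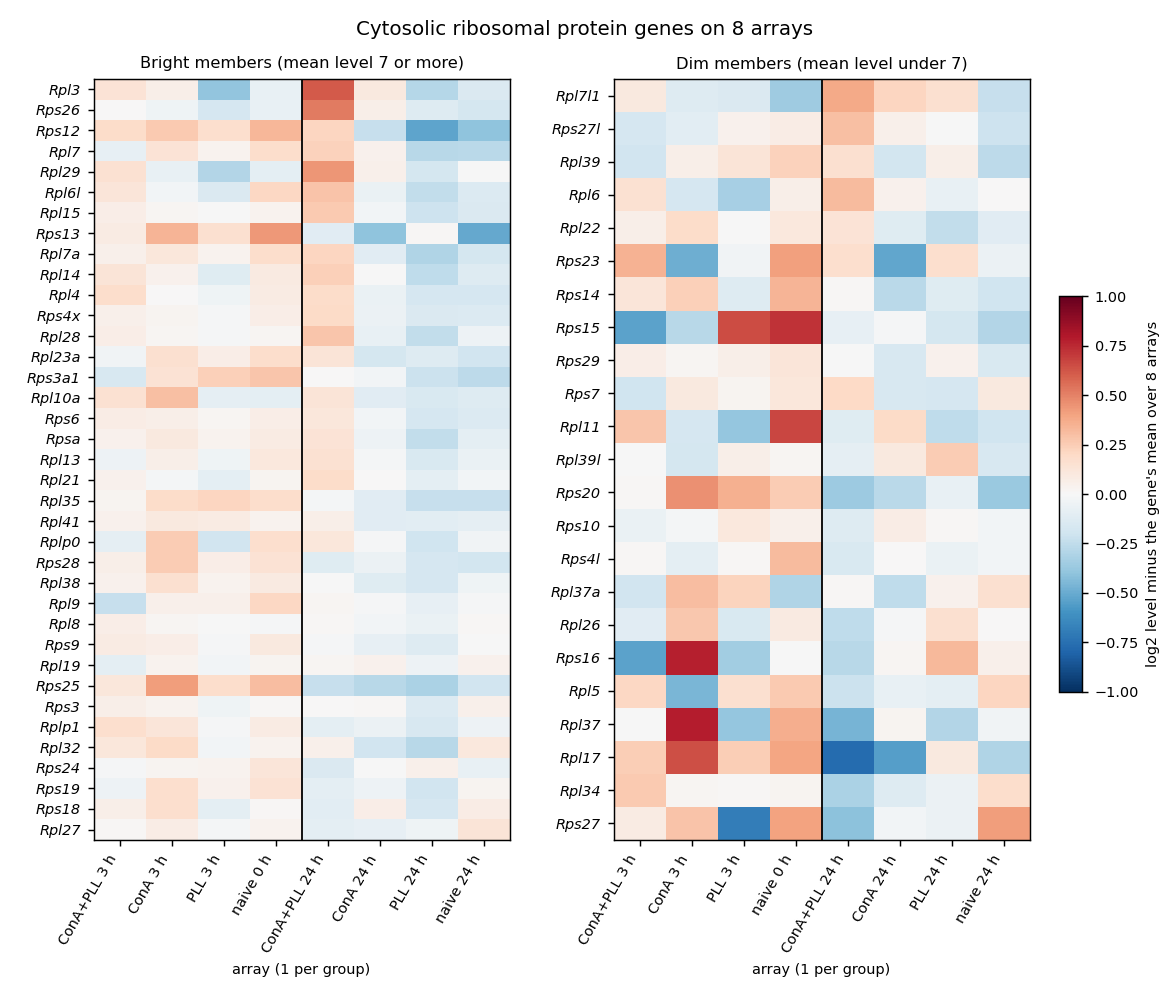
Level of each member on each array minus that gene's mean over the 8 arrays (colour, log2), with 37 bright members on the left and 23 dim members on the right, ordered by ConA+PLL minus naive at 24 h. The bright panel is pale except for the ConA+PLL 24 h column (Rpl3 at 9.55 and Rps26 at 10.16) and the naive and PLL 24 h columns, while single dim cells are strong with no shared column.

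After culture alone most of the family was lower. On the naive 24 h array 30 of 37 bright members lay under the naive 0 h array, with a median difference of -0.18. In the same comparison 46% of all genes with a mean level of at least 7 lay above 0, with a median of -0.04. Small subunit genes had a median of -0.20 and large subunit genes of -0.13. Over the 60 members the median was -0.18, against 0.04 for all filtered genes. 0 members were 1.5-fold higher, against 9.12% of all filtered genes. 6 were 1.5-fold lower (Rpl11, Rpl17, Rps12, Rps13, Rps15 and Rps20), against 5.91% of all filtered genes.

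Rps13, a small subunit protein, had the largest difference of the bright class. It held 8.27 on ConA+PLL, 8.53 on ConA and 8.35 on PLL at 3 h, against 8.63 on naive 0 h. The 24 h levels were 8.08 on ConA+PLL, 7.79 on ConA and 8.21 on PLL, against 7.68 on naive. All 24 h values lay under all earlier ones, and naive 24 h minus naive 0 h was -0.95. The same full separation of the 24 h arrays from the earlier ones was seen for Rps25, Rps28, Rpl35, Rpl38 and Rplp1. The gap could be narrow. For Rpl38 the highest 24 h level was 10.39 on ConA+PLL, and the lowest earlier level was 10.43 on PLL at 3 h. How often other genes with a mean level of at least 7 separated in this way was not counted. Whether the family stands out in this was thus not tested. Rps25 held 8.02, 8.33 and 8.08 on ConA+PLL, ConA and PLL at 3 h, against 8.21 on naive 0 h. After 24 h it had 7.67, 7.63 and 7.59 on ConA+PLL, ConA and PLL, against 7.71 on naive. The 4 arrays at 24 h lay close to each other. Rps12, known in Drosophila for its part in cell competition, differed by -0.73 and Rps3a1 by -0.55 between naive 24 h and naive 0 h. Rpl29, Rpl27 and Rpl32 were the highest of the bright class at 0.09, 0.09 and 0.07.

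At 3 h the bright class lay close to naive cells on ConA alone. The median difference of ConA at 3 h minus naive 0 h was 0.01, with 20 of 37 above 0, against 37.7% of all genes with a mean level of at least 7. The highest was Rpl10a, with 9.51 on ConA at 3 h against 9.11 on naive 0 h, a difference of 0.40. Rpl6l was the lowest at -0.23. No bright member passed 1.5-fold. The 60 members had a median of -0.01. 2 dim members were 1.5-fold higher, against 2.65% of all filtered genes. They were Rps16, a small subunit protein that contacts the tRNA, and Rpl37a. 4 were 1.5-fold lower (Rps15, Rps23, Rpl11 and Rpl5), against 2.38%.

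On PLL alone levels were slightly lower over nearly the whole bright class. At 3 h, 33 of 37 lay under naive 0 h, with a median of -0.10. In this comparison PLL and time in culture cannot be told apart. All 14 bright small subunit genes were under it. Among all genes with a mean level of at least 7, 41.4% lay above 0 and the median was -0.05. Rplp0, the protein on which the stalk is built, was the lowest at -0.36, then Rpl6l at -0.35 and Rpl3 at -0.32. With the mean of all probe sets the difference of Rplp0 was -0.07. The median of the 60 members was -0.10. 0 members were 1.5-fold higher, against 3.49% of all filtered genes. 3 dim members were 1.5-fold lower (Rps27, Rpl11 and Rpl37), against 2.88%.

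PLL at 24 h, set against naive 24 h, gave a like picture for the bright class in a second pair of arrays. The dim class did not, with a median of 0.08 and 13 of 23 above 0, against -0.10 and 5 of 23 for PLL at 3 h minus naive 0 h. 30 of 37 bright members were lower, with a median of -0.09, while 46.8% of all genes with a mean level of at least 7 lay above 0. The PLL 24 h array held the lowest of the 8 values for 24 of the 37, and for 19.4% of all genes with a mean level of at least 7. Rps13 was the highest at 0.52. Rpl32 was the lowest at -0.38. Over the 60 members the median was -0.07. 0 members passed 1.5-fold in either direction, against 1.01% of all filtered genes higher and 0.946% lower.

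Set against ConA alone, ConA+PLL at 3 h gave a bright median slightly under 0. It was -0.06 and 15 of 37 lay above 0. With each array centred on its median it was -0.01. All genes with a mean level of at least 7 had a median of 0.08, with 63.7% above 0. Rpl29 (0.22), Rpl4 (0.17) and Rpl6l (0.15) were the highest, and Rplp0 (-0.34), Rps3a1 and Rps25 (both -0.31) were the lowest. The 60 members had a median of -0.06. 2 dim members were 1.5-fold higher (Rps23 at 0.84 and Rpl5 at 0.66), against 3.54% of all filtered genes. 2 were 1.5-fold lower (Rps16 at -1.31 and Rpl37 at -0.79), against 5.5%.

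Against PLL at 3 h, ConA+PLL gave a bright median of 0.06 with 24 of 37 above 0, beside 58.3% of all genes with a mean level of at least 7. With each array centred on its median it was 0.16 with 32 of 37 above 0. The highest were Rpl3 (0.53), Rpl29 (0.44) and Rpl6l (0.26), and the lowest Rps3a1 (-0.40) and Rpl9 (-0.28). The median of the 60 members was 0.04. Rps27 and Rpl11 were 1.5-fold higher (2 members, against 6.09% of all filtered genes) and Rps15 was 1.5-fold lower (1 member, against 8.7%). Against naive 0 h, ConA+PLL at 3 h gave a bright median of -0.03 with 16 of 37 above 0, beside 53.5%. The 60 members had a median of -0.07. 0 members were 1.5-fold higher, against 4.63%, and only Rps15 was 1.5-fold lower, against 6.35%. With each array centred on its median the bright median against naive 0 h was 0.04, so its sign was not settled.

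**Figure D2:**
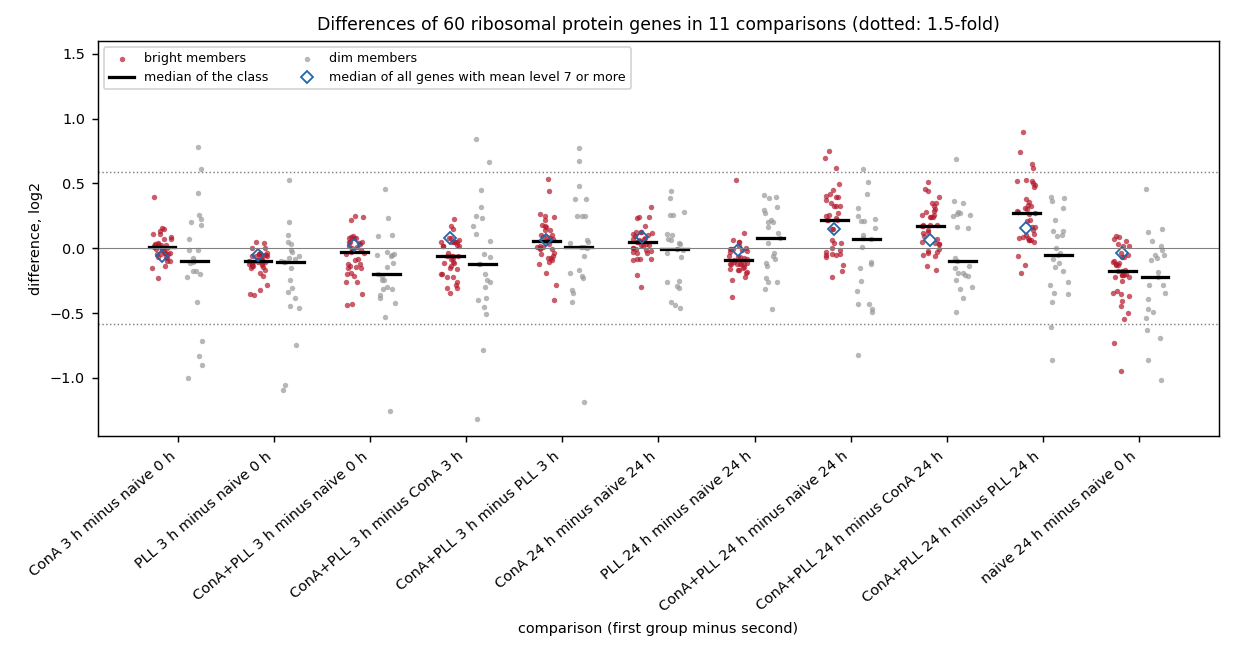
Difference of each member (y, log2) in 11 comparisons (x, first group minus second), with bright members in red, dim members in grey, class medians as bars and the median of all genes with a mean level of at least 7 as diamonds. The bright class lies above its diamond in the 3 comparisons that hold ConA+PLL at 24 h (medians 0.22, 0.17 and 0.28). It lies under its diamond after culture alone (-0.18). Such gaps are not limited to these comparisons. The class is also above its diamond for ConA at 3 h minus naive 0 h (0.01 against -0.06). For ConA+PLL minus ConA at 3 h it is under it (-0.06 against 0.08). Dim members spread past the dotted 1.5-fold lines on both sides.

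At 24 h the picture differed, and ConA+PLL gave higher levels of many bright members. 27 of 37 lay above naive 24 h, with a median of 0.22. All genes with a mean level of at least 7 had a median of 0.15, with 71.6% above 0, so the share of members above 0 was near that of other bright genes. The large subunit genes had a median of 0.25 with 18 of 21 above 0. The small subunit genes had a median of 0.15 with 8 of 14 above 0. Over the 60 members the median was 0.15, against 0.08 for all filtered genes. 4 members were 1.5-fold higher (Rpl3, Rps26, Rps12 and the dim Rpl7l1), against 6.7% of all filtered genes. Rps27 was the 1 member that was 1.5-fold lower, against 2.57%. ConA+PLL held the highest of the 24 h values for 25 of 37 bright members, and for 55.7% of all genes with a mean level of at least 7. With each array centred on its median, the median of all filtered genes was -0.06 and that of the 60 members 0.01. The bright median was then 0.08 with 23 of 37 above 0.

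Against ConA at 24 h, which shares the ConA+PLL array with the previous comparison, the bright median was 0.17 with 29 of 37 above 0. Of all genes with a mean level of at least 7, 60.7% lay above 0, and their median was 0.06. Large subunit genes had a median of 0.24 and small subunit genes of 0.06. The median of the 60 members was 0.15. Rps23, a dim member whose protein lines the decoding centre, was the 1 member past 1.5-fold higher, against 5.19% of all filtered genes. 0 were 1.5-fold lower, against 1.95%. Against PLL at 24 h the bright median was 0.28 with 34 of 37 above 0, beside 71.6% and a median of 0.15 for all genes with a mean level of at least 7. Large subunit genes had 0.30 and small subunit genes 0.13. The 60 members had a median of 0.14. 4 members were 1.5-fold higher (Rpl3, Rps12, Rps26 and Rpl29), against 6.58%, and the dim Rpl17 and Rps16 were 1.5-fold lower (2 members, against 2.21%). Centred on array medians, the bright median was 0.05 with 21 of 37 above 0 against ConA, and 0.14 with 25 of 37 above 0 against PLL.

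ConA without PLL at 24 h stayed close to naive 24 h. The bright median was 0.05 with 24 of 37 above 0, against a median of 0.08 and 73.2% for all genes with a mean level of at least 7. Rpl7 (0.31), Rpl3 (0.24) and Rps26 (0.24) were the highest, and Rpl32 (-0.30) and Rpl27 (-0.21) the lowest. The median of the 60 members was 0.03. 0 members passed 1.5-fold, against 1.36% of all filtered genes higher and 2.06% lower.

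Rpl3, a core protein next to the peptidyl transferase centre, had the largest difference at 24 h. It held 9.07 on ConA+PLL, 8.99 on ConA and 8.54 on PLL at 3 h, against 8.86 on naive 0 h. Its 24 h levels were 9.55 on ConA+PLL, 9.03 on ConA and 8.65 on PLL, against 8.79 on naive. ConA+PLL minus naive at 24 h was 0.75, and both PLL arrays were the lowest of their time. The gene has 3 probe sets, and the other pair did not show this. The second held 6.02 on ConA+PLL and 6.07 on ConA at 24 h, against 6.19 on naive. The dimmest held 3.38 on ConA+PLL at 24 h, against 3.77 on naive. With the mean of all probe sets the difference of Rpl3 was 0.06.

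Rps26, which sits at the mRNA exit channel of the small subunit, held 9.65 on ConA+PLL, 9.60 on ConA and 9.47 on PLL at 3 h, against 9.57 on naive 0 h. The later arrays gave 10.16 on ConA+PLL, 9.70 on ConA and 9.51 on PLL, against 9.47 on naive. The ConA+PLL 24 h array was the highest of all, at 0.70 above naive 24 h. Its other probe set lay under 3 on all arrays, and the mean of both gave 0.22.

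Rps12 held 11.08 on ConA+PLL, 11.16 on ConA and 11.06 on PLL at 3 h, against 11.23 on naive 0 h. At 24 h it held 11.11 on ConA+PLL, 10.67 on ConA and 10.37 on PLL, against 10.50 on naive. In the probe set used, the ConA+PLL 24 h level lay within the range of the 0 h and 3 h arrays. The other 24 h arrays lay under that range. ConA+PLL minus naive at 24 h was 0.62. Its 8 probe sets, some of which hold identical values, shared this order of the 24 h arrays, and their mean gave 0.57. In those not used, the ConA+PLL 24 h level lay just under all earlier arrays (10.84 against a lowest of 10.85, or 10.00 against 10.06).

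Rpl29, a large subunit protein, held 10.94 on ConA+PLL, 10.72 on ConA and 10.50 on PLL at 3 h, against 10.69 on naive 0 h. The 24 h levels were 11.23 on ConA+PLL, 10.84 on ConA and 10.62 on PLL, against 10.78 on naive. ConA+PLL was the highest and PLL the lowest at both times. Rpl7, also of the large subunit, held 9.80 on ConA+PLL, 10.03 on ConA and 9.93 on PLL at 3 h, against 10.06 on naive 0 h. After 24 h it had 10.12 on ConA+PLL, 9.93 on ConA and 9.62 on PLL, against 9.62 on naive. In this probe set ConA+PLL was thus the lowest array of the earlier times and the highest at 24 h. A second, dim probe set of Rpl7 had the opposite signs, with ConA+PLL minus naive at 0.18 at 3 h and -0.23 at 24 h. Rps3a1 was lowest of its time on ConA+PLL at 3 h too, at 9.67, with 9.97 on ConA and 10.07 on PLL, against 10.11 on naive 0 h. Its 24 h levels were 9.83 on ConA+PLL, 9.80 on ConA and 9.61 on PLL, against 9.56 on naive.

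**Figure D3:**
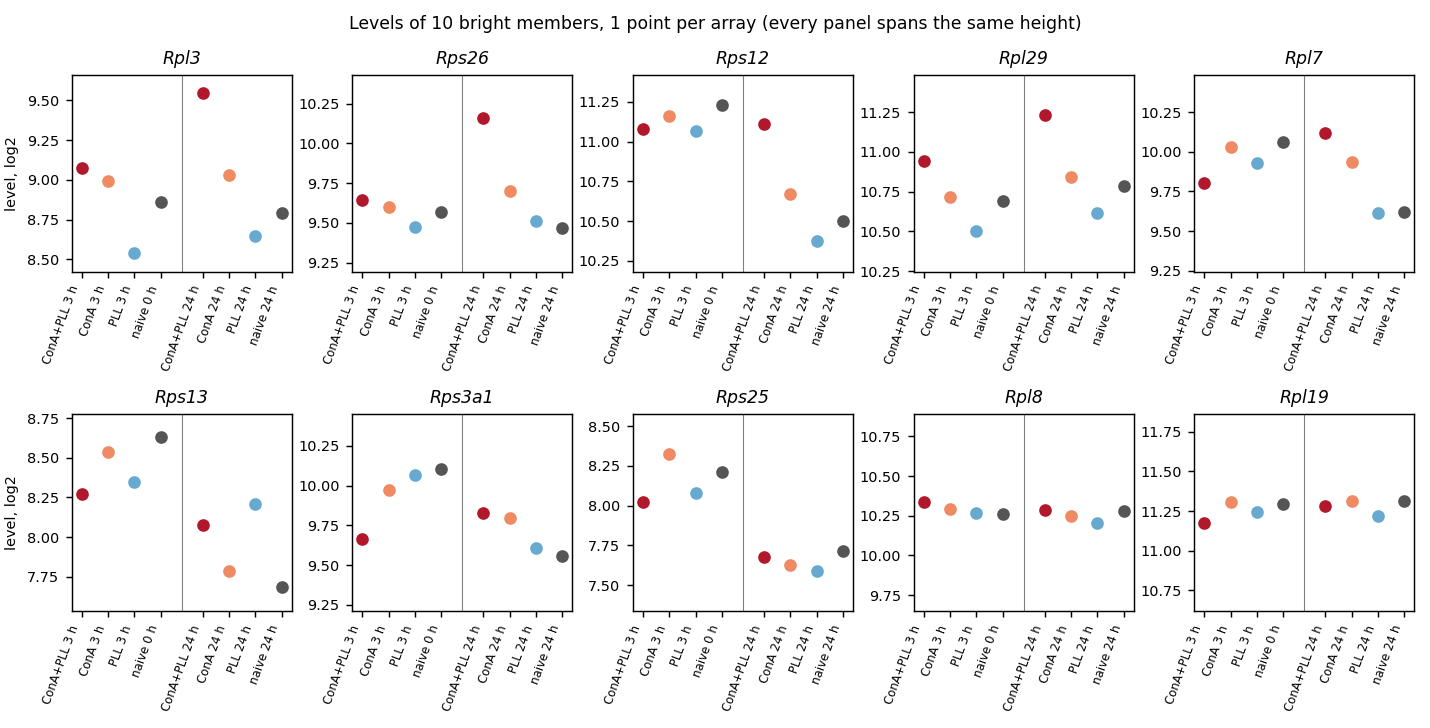
Level (y, log2) of 10 bright members on the 8 arrays (x), 1 point per array, with 3 h and 0 h left of the line and 24 h right of it, and with ConA+PLL in red, ConA in orange, PLL in blue and naive in grey. Rpl3, Rps26 and Rpl29 peak on ConA+PLL at 24 h (9.55, 10.16 and 11.23), and Rps12 is near its early level only there (11.11). Rps13 and Rps25 are lower on all 24 h arrays, and Rpl8 and Rpl19 stay level.

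Other bright members had smaller differences at 24 h. Rps6, the small subunit protein that S6 kinase phosphorylates, held 12.24 on ConA+PLL, 12.10 on ConA and 11.96 on PLL at 24 h, against 11.99 on naive. Rpsa, which also serves as a laminin receptor, held 11.17 on ConA+PLL, 10.99 on ConA and 10.79 on PLL at 24 h, against 10.94 on naive. ConA+PLL minus naive was 0.25 for Rps6 and 0.23 for Rpsa. Rpl27 (-0.22), Rps18 (-0.18) and Rps19 (-0.13) were the lowest for ConA+PLL minus naive at 24 h. Rpl27 and Rps24 were the 2 bright members with ConA+PLL lowest of the 24 h arrays. Of the 10 bright members under 0 in that comparison, 6 were small subunit genes, 3 were large subunit genes and 1 was Rplp1.

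The stalk proteins bring elongation factors to the ribosome. Rplp0 held 8.91 on ConA+PLL, 9.26 on ConA and 8.81 on PLL at 3 h, against 9.17 on naive 0 h. The later arrays gave 9.12 on ConA+PLL, 8.99 on ConA and 8.81 on PLL, against 8.97 on naive. PLL alone was the lowest at each time in this probe set. A second, dim probe set of Rplp0 had PLL alone as the highest at each time (5.16 at 3 h and 4.93 at 24 h). Rplp1, its acidic partner, held 11.80 on ConA+PLL, 11.75 on ConA and 11.62 on PLL at 3 h, against 11.71 on naive 0 h, and between 11.47 and 11.58 on the 24 h arrays. Rplp2 was under the filter on every array, at 2.49 to 3.22.

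Rpl5 and Rpl11 bind the 5S ribosomal RNA and, when free, the p53 ligase Mdm2. Both were dim. Rpl5 held 5.34 on ConA+PLL, 4.68 on ConA and 5.29 on PLL at 3 h, against 5.40 on naive 0 h. At 24 h it held 4.92 on ConA+PLL, 5.06 on ConA and 5.03 on PLL, against 5.35 on naive. Rpl11 held 4.32 on ConA+PLL, 3.87 on ConA and 3.65 on PLL at 3 h, against 4.70 on naive 0 h, and 3.78 to 4.22 at 24 h. The ConA 3 h array was the lowest for Rpl5, and for Rpl11 naive 0 h was the highest and PLL 3 h the lowest. Many Rpl11 values lay under the 4.10 of the receptor genes.

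Of 7 listed paralogue copies, 4 passed the filter, all dim. The list holds Rps4l, which RefSeq gives as a transcribed pseudogene, and leaves out the bright Rpl6l and Rpl32l, which was under the filter. Of the 4 past the filter, only Rpl7l1, a paralogue of Rpl7, had the same order of groups at both times. It held 4.40 on ConA+PLL, 4.17 on ConA and 4.15 on PLL at 3 h, against 3.95 on naive 0 h. The 24 h levels were 4.68 on ConA+PLL, 4.52 on ConA and 4.46 on PLL, against 4.07 on naive. ConA+PLL was the highest and naive the lowest at both times, and ConA+PLL minus naive at 24 h was 0.61. Rps27l, a known p53 target, held 5.05 on ConA+PLL, 5.11 on ConA and 5.26 on PLL at 3 h, against 5.29 on naive 0 h. At 24 h its order was reversed, with 5.52 on ConA+PLL, 5.27 on ConA and 5.21 on PLL, against 5.01 on naive. Rpl39l held 4.07 to 4.50 and Rps4l 3.78 to 4.24 over the 8 arrays. Rpl3l, known from muscle, and Rpl10l, known from testis, did not exceed 3.52 and 2.64. Rpl22l1 held 2.95 to 3.51, and Rpl22, which is needed for T cell development in mice, held 4.41 to 4.84.

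Most other large differences came from dim members. Of the members past 1.5-fold in any of the 11 comparisons, 5 of 37 were bright and 11 of 23 dim. Among all filtered genes the share was 37.9% at a mean level of at least 7 and 44% under it, so the dim members were near their background and the bright ones under theirs. Rps16 held 3.17 on ConA+PLL, 4.49 on ConA and 3.36 on PLL at 3 h, against 3.70 on naive 0 h, and 3.43 to 4.04 at 24 h. The single ConA 3 h value set its widest gap. Rps15, a protein needed for export of the small subunit from the nucleus, held 2.47 on ConA+PLL, 2.72 on ConA and 3.65 on PLL at 3 h, against 3.72 on naive 0 h. Every value of Rps15 lay under 4.10. Rps27 held 6.44 on ConA+PLL, 6.64 on ConA and 5.66 on PLL at 3 h, against 6.76 on naive 0 h. After 24 h it had 5.95 on ConA+PLL, 6.33 on ConA and 6.30 on PLL, against 6.77 on naive, so ConA+PLL was the lowest there. Rpl17, at the peptide exit tunnel, held 5.55 on ConA+PLL, 5.95 on ConA and 5.54 on PLL at 3 h, against 5.69 on naive 0 h. Its lowest values at 24 h were 4.53 on ConA+PLL and 4.75 on ConA, with PLL (5.40) and naive both higher.

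Rpl37 had 5.26 on ConA+PLL, 6.05 on ConA and 4.88 on PLL at 3 h, against 5.62 on naive 0 h, and 4.80 to 5.29 at 24 h. Rps23 had 5.43 on ConA+PLL, 4.59 on ConA and 5.05 on PLL at 3 h, against 5.50 on naive 0 h. Its 24 h levels were 5.25 on ConA+PLL, 4.57 on ConA and 5.25 on PLL, against 5.03 on naive. Rps23 was thus lowest on ConA alone at both times. Rps20 had 5.79 to 6.24 on the 0 h and 3 h arrays and 5.41 to 5.71 on the 24 h arrays, with no overlap. Rpl34 (5.95 to 6.54), Rpl26 (5.07 to 5.59) and Rpl37a (4.57 to 5.19) complete the named dim members. For ConA+PLL minus naive at 24 h the dim class had a median of 0.07, with 13 of 23 above 0. Dim and bright probe sets of the same gene could differ in sign. 18 bright members had a further probe set with a mean level under 7. In the same comparison, the probe set used was above 0 in 12 of the 18 genes and the dimmest one in 5, and the signs were opposite in 11. How many opposite signs unrelated values would give was not tested. What the dim probe sets measured was not tested. Whether each bright probe set reads only the gene it is named for was not tested either.

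Other genes of ribosome production moved apart from the ribosomal proteins at 3 h. Of 22 ribosome biogenesis genes, which process ribosomal RNA and assemble subunits, 8 were 1.5-fold higher and 1 was 1.5-fold lower on ConA+PLL than on ConA at 3 h, with a median of 0.43. Of all filtered genes 3.54% were higher and 5.5% lower. Against PLL at 3 h, 18 were higher and 1 was lower, with a median of 0.88, against 6.09% higher and 8.7% lower. Nop2, an rRNA methyltransferase, held 7.54 on ConA+PLL, 6.70 on ConA and 6.30 on PLL at 3 h, against 6.27 on naive 0 h. Nop56, a core protein of box C/D particles, was the gene 1.5-fold lower in both comparisons. It held 7.63 on ConA+PLL, 8.63 on ConA and 8.85 on PLL at 3 h, against 8.02 on naive 0 h. Wdr12 was also lower on ConA+PLL (5.49) than on PLL (5.81) at 3 h, by less than 1.5-fold. Myc, the transcription factor that drives ribosome production, held 9.66 on ConA+PLL, 8.40 on ConA and 6.87 on PLL at 3 h, against 7.15 on naive 0 h. Larp1, the protein that binds TOP mRNAs, held 8.56 on ConA+PLL, 7.92 on ConA and 7.84 on PLL at 3 h, against 7.90 on naive 0 h. The 37 bright ribosomal protein genes had medians of -0.06 and 0.06 in the same pair of comparisons (-0.01 and 0.16 with each array centred), and 0 of them passed 1.5-fold.

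At 24 h the lists lay closer together. For ConA+PLL minus naive the medians were 0.22 for bright ribosomal proteins, 0.34 for 15 other TOP mRNA and elongation genes, 0.32 for 68 mitochondrial ribosomal proteins and 0.35 for ribosome biogenesis genes. All genes with a mean level of at least 7 had 0.15. With each array centred the bright median was 0.08, and the other lists were not centred. 2 of 22 ribosome biogenesis genes were 1.5-fold higher and 2 were lower, against 6.7% and 2.57% of all filtered genes. 3 of the 15 TOP and elongation genes were 1.5-fold higher and 0 were lower, against 6.7% and 2.57% of all filtered genes. These were Npm1, which shuttles ribosomal particles, at 9.45 on ConA+PLL against 8.68 on naive, Eef1g, an elongation factor subunit, at 9.26 on ConA+PLL against 8.55 on naive, and Nap1l1, a histone chaperone, at 7.34 on ConA+PLL against 6.51 on naive. Eef1a1, the factor that brings tRNA to the ribosome, held 12.62 on ConA+PLL against 12.30 on naive. Tpt1 went the other way, at 10.29 on ConA+PLL against 10.47 on naive. 11 of 68 mitochondrial ribosomal proteins were 1.5-fold higher and 0 were lower, beside the same 6.7% and 2.57%. The 4 chaperones of ribosomal proteins had a median of 0.32, with 0 past 1.5-fold. After culture alone the TOP and elongation genes had a median of -0.26, close to the -0.18 of bright ribosomal proteins, while the mitochondrial ribosomal proteins had 0.01.

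**Figure D4:**
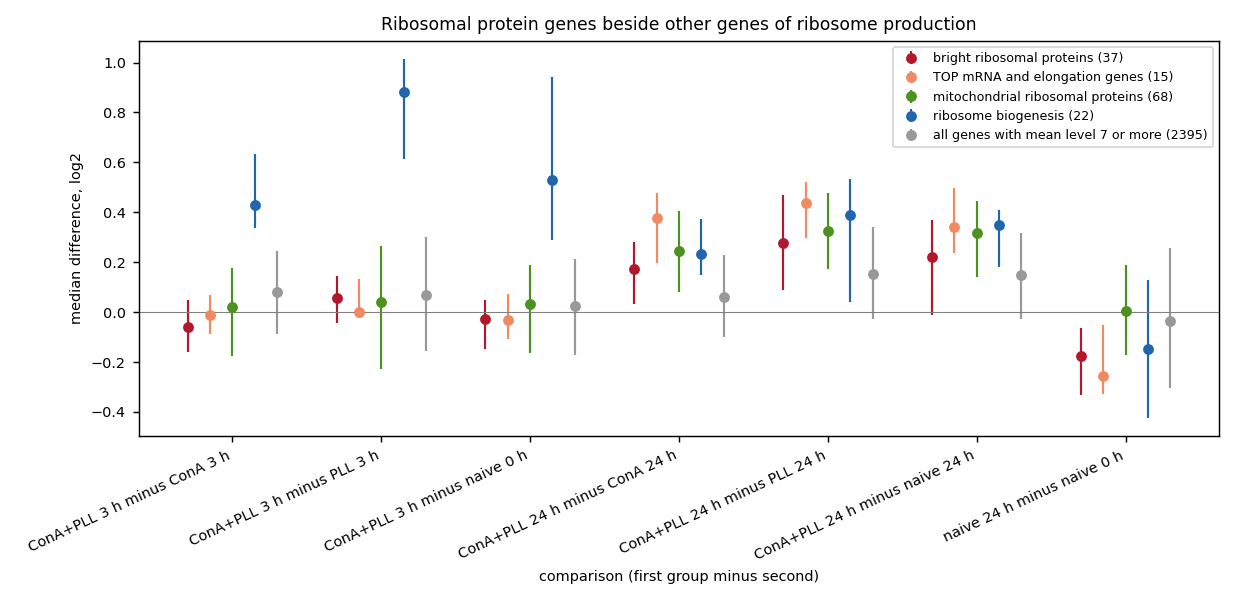
Median difference (y, log2, points) with the quartiles (bars) of bright ribosomal protein genes, 3 related lists and all genes with a mean level of at least 7, in 7 comparisons (x, first group minus second). At 3 h ribosome biogenesis genes lie highest (0.43, 0.88 and 0.53). At 24 h all lists lie above 0 on ConA+PLL, with bright ribosomal proteins at 0.17, 0.28 and 0.22. All genes with a mean level of at least 7 lie there at 0.06, 0.15 and 0.15.

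Probe sets that carry a member's symbol together with other symbols gave a further reading of the family, without a gene name. 48 such probe sets held no small nucleolar RNA symbol, and 26 of these had a mean level of at least 7. Their median was -0.21 for naive 24 h minus naive 0 h, with 5 of 26 above 0. All genes with a mean level of at least 7 had -0.04, with 46% above 0. For ConA+PLL minus naive at 24 h the shared probe sets had 0.02 with 17 of 26 above 0, lower than the 0.22 of the bright members. All genes of that level had 0.15, with 71.6% above 0. The shared probe sets had 0.08 against ConA and 0.14 against PLL, beside 0.06 and 0.15 for those genes. The lower level after culture was thus seen in both sets of probe sets. Both were read from the same naive arrays, so the shared probe sets are not a second observation. On ConA+PLL at 24 h the shared ones lay under other genes of that level against naive, and near them against ConA and PLL.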

How the data were processed

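RMA normalization was done by the authors after they had labelled cDNA and scanned it on the arrays. The deposited values were read as log2 levels, since the table does not state the log base. Not given in the sources used here were the software version, the genome build and the set of arrays normalized together. The platform annotation named probe sets (23521 with 1 symbol, 1820 with several, 16004 with none); those with several symbols were not named. All 67 members matched RefSeq by Entrez identifier. A difference is the log2 level of the first group minus that of the second, in 11 comparisons. A member was counted at 1.5-fold. Medians of lists were set beside those of all filtered genes. The members, lists and alternatives were chosen with earlier results of these data known, and the bright class after the values were seen. Named were the stalk, 5S RNP and paralogue genes, Rps16, the 10 members with the widest range, and the 3 highest and 3 lowest of each comparison. The same rule was then applied within the bright class, and members such as Rpl8, Rpl19, Rps3, Rps6, Rpsa and Rpl22 were named after their values were seen. The lists of other genes were named likewise. The number of arrays limits precision. Scripts (Python 3.11.15, pandas 2.3.3, numpy 2.4.6) were tested on simulated data. The alternatives were quantile normalization, centring of each array, other probe set and filter rules, the mean over members, other control arrays and a 2-fold threshold.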

Additional observations from a re-analysis of the deposited data

Results flagged for a closer look

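For some contrasts the sign at 3 h was opposite to that at 24 h, each time between single arrays, so these differences were not tested. For contrasts with naive cells at 3 h, treatment and time in culture cannot be told apart. The bright median for ConA+PLL minus naive was -0.028 at 3 h and 0.22 at 24 h, and for ConA+PLL minus ConA it was -0.062 at 3 h and 0.17 at 24 h. With each array centred on its median, ConA+PLL minus naive gave 0.04 at 3 h, with 21 of 37 above 0, and 0.08 at 24 h, so its change of sign did not hold. ConA+PLL minus ConA then gave -0.01 at 3 h and 0.05 at 24 h. Rpl7 had -0.26 at 3 h and 0.50 at 24 h for ConA+PLL minus naive, while its second, dim probe set had 0.18 at 3 h and -0.23 at 24 h. Rps3a1 had -0.44 at 3 h and 0.27 at 24 h in the same contrast. Rps13 had -0.36 at 3 h and 0.39 at 24 h for ConA+PLL minus naive, -0.26 and 0.29 for ConA+PLL minus ConA, and -0.28 and 0.52 for PLL minus naive. All 24 h values of Rps13 against naive share the naive 24 h array, on which it was lowest.

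Among probe sets outside the comparisons of single genes, 9 carried both a member's symbol and a small nucleolar RNA. Their median for ConA+PLL minus naive at 24 h was -0.30, opposite in sign to that of the bright members.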

How the results depend on the processing

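Of 92 alternative values of the members' median difference, 83 stayed within 0.1 of the value reported. Centring the arrays on their medians of filtered genes gave 0.14 for ConA+PLL minus PLL at 3 h, and 0.013, 0.021 and 0.0033 for ConA+PLL at 24 h minus naive, ConA and PLL. With naive 0 h as the control at 24 h the medians were -0.15 for ConA, -0.25 for PLL and -0.081 for ConA+PLL, the last with its sign turned. With PLL 3 h as the control, ConA at 3 h had 0.091. Bright members alone gave 0.28 for ConA+PLL minus PLL at 24 h. Bright members minus bright genes, a choice made after seeing the data, gave -0.14 for ConA+PLL minus ConA at 3 h and -0.0095 (sign turned) for ConA+PLL minus PLL at 3 h, and the other 31 of 33 relative medians kept within 0.1. Quantile normalization moved no median by 0.1 or more. At 2-fold, counts of 2 higher and 4 lower for ConA at 3 h became 0 and 0, those of 2 and 2 for ConA+PLL minus ConA at 3 h became 0 and 1, and the 2 higher against PLL at 3 h became 0. At 24 h, the 4 higher and 1 lower of ConA+PLL against naive, the 1 higher against ConA, and the 4 higher and 2 lower against PLL all became 0, and the 6 lower after culture became 1. Centring gave 4 higher against PLL at 3 h. At 24 h it gave 1 higher and 3 lower against naive, 0 higher and 1 lower against ConA, 2 higher against PLL and 10 lower after culture. Of 345 alternative values of named members 309 kept their sign and their side of 1.5-fold. The cause of these changes was not tested. No paired analysis was possible because each group has 1 array. Depth is not a property of arrays, and the dim probe sets near 4.10 are the least certain.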

Other observations

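Small nucleolar RNAs guide the modification of ribosomal RNA, and many known ones are cut from introns of host genes. The hosts of those measured here were not looked up. 73 genes named as small nucleolar RNAs passed the filter. At 3 h their median was 0.27 for ConA minus naive 0 h, with 66 of 73 above 0 (45.2% of all filtered genes), and 0.34 for PLL minus naive 0 h, with 65 of 73 above 0 (50.1%). For ConA+PLL minus naive 0 h it was -0.04, and for ConA+PLL minus ConA at 3 h -0.35, with 68 of 73 under 0 (52.9%). At 24 h it was -0.48 for ConA+PLL minus naive, -0.42 for ConA+PLL minus ConA and -0.44 for ConA+PLL minus PLL. 28 of the 73 were 1.5-fold lower on ConA+PLL than on naive at 24 h, and 0 were 1.5-fold higher, against 2.57% and 6.7% of all filtered genes. The 9 probe sets shared with a ribosomal protein symbol had -0.30, -0.27 and -0.46 in the same order.

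15 probe sets were named for ribosomal protein pseudogenes ending in -ps, and 5 of these had a mean level of at least 7. All 5 were lower on naive 24 h than on naive 0 h, with a median of -0.52. Rpl34-ps2 held 10.75 to 10.88 on the 8 arrays, while the probe set of Rpl34 itself held 5.95 to 6.54. Rps12-ps24 held 7.62 on ConA+PLL, 6.60 on ConA and 7.45 on PLL at 24 h, against 7.13 on naive.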
